A study of Schizosaccharomyces pombe with 6 samples.

Results

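The RPA landscape described here is that of checkpoint-proficient fission yeast, Schizosaccharomyces pombe, and rests on the 3 arrays of the series that carry the strain labelled WT, out of 6 arrays in all. The strain is cdc25-22, in which the mitotic activator Cdc25 is temperature sensitive, so that "WT" refers to the rad3 gene and not to cdc25. Cells in EMM6S medium were blocked for 4 h at 36.5 °C, returned to 25 °C and treated with 6 mM hydroxyurea after that release. How long hydroxyurea was present is not stated in the labels, and nothing in the labels says whether the 3 replicates came from separate cultures, so the spread between them may be partly technical. On each array the material precipitated with the RPA subunit Ssb1 (the IP) was set against the input of the same sample. Both were read here as DNA, because the series is described as a ChIP-on-chip, although the labels' extraction and labelling fields speak of RNA. Green was the colour of the IP for replicates 1 and 2, and red for replicate 3, where the dyes were swapped. The other 3 arrays, of cdc25-22 cells lacking rad3, were not compared with these and entered only alternative fits.

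RPA is a complex of 3 subunits that coats single-stranded DNA wherever the duplex is opened. Hydroxyurea inhibits ribonucleotide reductase, which makes deoxyribonucleotides, and replication forks then slow and expose single-stranded DNA that RPA covers. RPA on such DNA is also the platform on which the ATR-family kinase Rad3 is recruited. In fission yeast the centromeres are known to replicate early in S phase and the regions next to the telomeres of chromosomes I and II late, and replication origins lie mostly in A+T-rich gaps between genes.

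Values are log2 ratios of IP over input, centred on the median of the nuclear probes of each array. A positive value thus means a higher ratio of IP to input than at the median nuclear probe, on a relative scale. It does not by itself mean a high IP intensity. Each array measured 42641 nuclear probes with a median spacing of 265 bp, and the IP was well above background at 95.3% to 99.4% of them. The number of arrays, 3, limits the precision. Correlations across probes, which are not independent replicates, were 0.53 between replicates 1 and 2, 0.60 between 1 and 3 and 0.62 between 2 and 3. Averaged over 617 bins of 20 kb they were 0.89, 0.88 and 0.86. The arrays thus ranked stretches of 20 kb more alike than single probes. Probes of the mitochondrial genome, which lies outside the nucleus, had median ratios of -0.40, -0.90 and -1.42 in replicates 1, 2 and 3, below the nuclear median on every array and lowest in replicate 3.

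Of the 42641 probes, 4378 (10.3%) lay above the array median in the limma fit over the 3 arrays (adjusted p under 0.05), and 5628 (13.2%) lay below it. With all 6 arrays and the replicate number as a block, 7823 probes were above and 8697 below, and with the 3 arrays centred on the mode of each, 2794 were above. The block takes the spread shared by same-numbered arrays of both strains out of the error. Calls made with it therefore do not reflect the full spread between replicates. Without replicate 1, 2 or 3 the probes above numbered 2231, 2862 and 2193, and those below numbered 2677 without replicate 3. Runs of at least 3 neighbouring called probes gave 287 regions above the median, 273 kb in all with a median width of 744 bp, and 397 regions below it, 480 kb in all with a median width of 795 bp. With the replicate block the regions numbered 693 above and 708 below, and centring on the mode gave 146 above. Without replicate 1, 2 or 3 there were 107, 142 and 81 regions above, and without replicate 1 or 3 there were 251 and 142 below. Chromosome III had the largest share of its probes in regions above, 3.06%, against 2.78% on chromosome I and 2.75% on chromosome II. It had the smallest share in regions below, 1.93%, against 6.60% on chromosome I and 3.98% on chromosome II. Regions above were therefore spread almost evenly over the chromosomes, and those below were not.

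**Figure D1:**
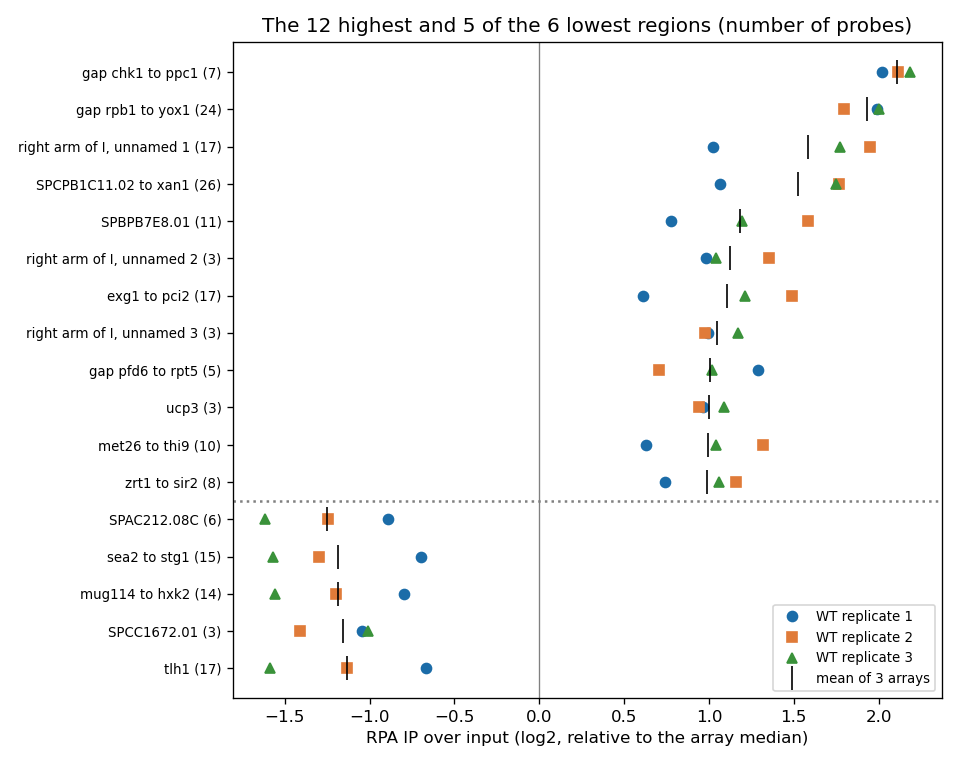
The 12 highest and 5 of the 6 lowest regions among those with all 3 arrays on one side, as log2 IP over input relative to the array median on the horizontal axis. Symbols are the 3 WT arrays, the vertical tick is their mean, and the number of probes stands in brackets. The 2 regions at the top (the gaps chk1 to ppc1 and rpb1 to yox1) have all arrays between 1.80 and 2.18, whereas in the region from SPCPB1C11.02 to xan1 replicate 1 lies at 1.06 and the others at 1.77 and 1.75.

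Centromeres III and II carried the 2 highest regions of the genome. A centromere is the chromosomal site at which the kinetochore assembles, and its repeats leave few unique probes, so each was placed here at the centre of the stretch of 50 kb holding the lowest number of probes. At centromere III, 7 probes (files' positions 1097235 to 1098896 of chromosome III) averaged 2.02, 2.12 and 2.18 in replicates 1, 2 and 3, a mean of 2.11 ± 0.08 (SD, n = 3). At centromere II, 24 probes (1620842 to 1627570 of chromosome II) averaged 1.99, 1.80 and 2.01, a mean of 1.93 ± 0.12. The coding genes annotated on either side of these regions are chk1 and ppc1 for centromere III and rpb1 and yox1 for centromere II. At centromere I the 10 probes within 10 kb of the middle averaged 0.99, 0.86 and 0.92, a mean of 0.92 ± 0.07, below the other two centromeres on every array. Both channels moved at centromeres II and III. The IP there was 1.41 and 1.28 above its array median, and the input 0.50 and 0.80 below its own. Within 10 kb of the middle of centromere I the IP was 1.16 and the input 0.26 above the median.

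Away from the cores the ratio dropped within 20 to 30 kb. At 20 to 30 kb from the middle it was -0.02, -0.20 and 0.03 on chromosome I and 0.08, 0.03 and 0.22 on chromosome II, and at 30 to 50 kb on chromosome III it was 0.14, 0.09 and 0.26. All of these values lay between -0.20 and 0.26. Over all probes within 50 kb of a centromere the mean exceeded that of the arms by 0.19, 0.17 and 0.35, or 0.24 ± 0.09. Within 20 kb the excess was 1.11. Over 3 arrays an exact two-sided sign permutation test of one value cannot give a p below 0.25, so this and the other differences between classes of probes carry their spread and no p.

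**Figure D2:**
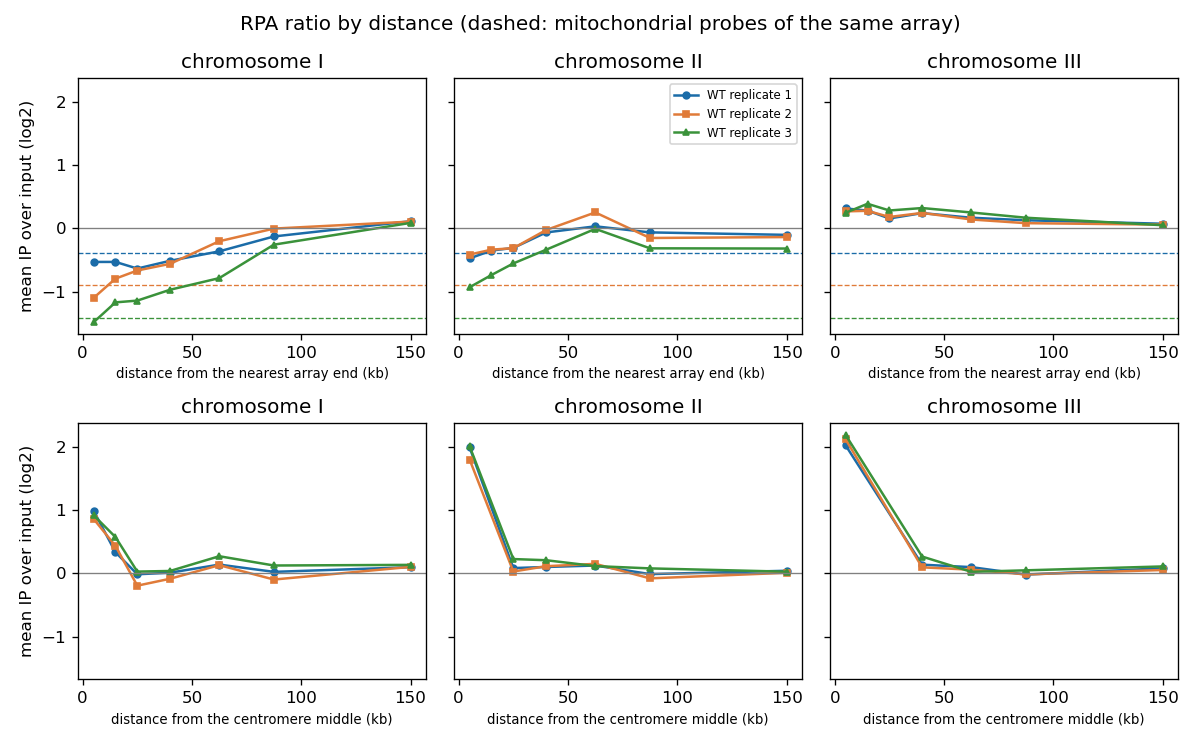
Mean log2 IP over input (vertical axis) against the distance in kb from the nearest end of the arrayed chromosome (upper row) and from the middle of the centromere (lower row), for each chromosome and WT array; dashed lines are the mitochondrial probes of the same array. The first 10 kb of chromosome I lie at -0.53, -1.10 and -1.48 in replicates 1, 2 and 3, next to the dashed lines, while the ends of chromosome III lie above 0 on all arrays.

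The ratio at the ends of chromosome I lay far below the array median, and that at the ends of chromosome III above it. Probes within 50 kb of an end of chromosome I lay below the arms by 0.56, 0.70 and 1.08 in replicates 1, 2 and 3 (a difference of -0.78 ± 0.27, SD, n = 3). On chromosome II the corresponding differences were -0.26, -0.20 and -0.53, or -0.33 ± 0.17. On chromosome III they were 0.23, 0.26 and 0.37, or 0.29 ± 0.07. The 3 arrays had one sign on each chromosome, and the groups of values for chromosomes I and III did not overlap. The 2 arms of a chromosome were not alike. The left 50 kb of chromosome II averaged -0.56, -0.61 and -1.02, whereas its right 50 kb averaged 0.04, 0.16 and -0.15. On chromosome I both ends were low, with -0.62, -0.99 and -1.38 on the left and -0.52, -0.61 and -1.03 on the right. On chromosome III the right end (0.36, 0.37 and 0.40) exceeded the left (0.14, 0.13 and 0.25) on every array. Relative to the array medians, the IP was 0.01 and the input -0.34 at that right end, and 0.13 and -0.02 at the left. On chromosome I the IP and input were -0.27 and 0.75 on the left, and -0.97 and -0.23 on the right. The arrayed part of chromosome III begins inward of the ribosomal DNA repeats that sit at both of its tips.

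In their ratios, the lowest nuclear stretches came close to the mitochondrial probes. Within 10 kb of the ends of chromosome I the mean ratio was -0.53, -1.10 and -1.48 in replicates 1, 2 and 3, against -0.40, -0.90 and -1.42 for the mitochondrial median of the same arrays. The depth of these stretches and that of the mitochondrial probes had the same order over the arrays, shallowest in replicate 1 and deepest in replicate 3. Within 10 kb of the ends of chromosome I the IP averaged -0.16 and the input 0.90, each relative to its array median. At 10 to 20 kb they averaged -1.07 and -0.21. Of the 617 bins of 20 kb, 31 were below -0.3 on all 3 arrays. They were 23 of the 276 bins of chromosome I (8.33%), 8 of 223 on chromosome II (3.59%) and 0 of 118 on chromosome III. The lowest bin was the first 20 kb of chromosome I, with -0.60, -1.09 and -1.46. Low bins were not only terminal. In the interior of the left arm of chromosome I, the bins from 2640001 to 2700000 averaged -0.40, -0.56 and -0.95, then -0.43, -0.83 and -1.12, then -0.43, -0.66 and -1.15 in replicates 1, 2 and 3. Only 7 bins were above 0.3 on all arrays, among them 1 at centromere II and the last bin of chromosome III with 0.42, 0.42 and 0.46.

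Low regions lay both at the left end and in the interior stretch of chromosome I. The lowest region covered SPAC212.08C (12432 to 13889 of chromosome I) and averaged -0.89, -1.24 and -1.61, or -1.25 ± 0.36. The region at the left tip covered tlh1, which encodes a RecQ-type DNA helicase found next to the telomeres, and averaged -0.67, -1.14 and -1.59. Its gene body had 16 probes, and because tlh1 has near-identical copies at other chromosome ends its values may mix them. Beside each other in the interior of the arm, the region from sea2 to stg1 averaged -0.70, -1.30 and -1.57, and the region from mug114 to hxk2 averaged -0.80, -1.20 and -1.56. The encoded proteins include Sea2, a subunit of the SEA complex that regulates TORC1, Stg1, an actin-associated protein of the transgelin family, and hexokinase 2. In all of these replicate 3 was the lowest. The region over SPCC1672.01 on chromosome III differed, with -1.04, -1.41 and -1.01. Relative to the array medians its IP was -0.02 and its input 1.16, against -1.505 and -0.30 in the region from sea2 to stg1. The widest low region, 9860 bp from 36857 of chromosome II, ran over ght7, a member of the hexose transporter family, and SPBPB8B6.02C with a mean of -1.02.

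Small RNA genes, most of them transcribed by RNA polymerase III, were above the array median more often than coding genes. Of 212 small RNA gene loci (the gene's middle with 500 bp on either side, at least 2 probes), 122 (57.5%) were above the median in their limma fit and 10 (4.72%) were below. Among 4156 protein-coding loci, 631 (15.2%) were above and 906 (21.8%) below, and the median locus was at -0.02. The coding counts depended on the setting: 307 above and 763 below with centring on the mode, 297 and 578 without replicate 2, and 1072 above with the replicate block. Without replicate 2, 81 small RNA loci were above and 2 below, and without replicate 3, 3 were below. Of the 118 measured tRNA genes out of 154, 72 were above and 3 below, with a median of 0.35. Of the 32 genes for 5S ribosomal RNA, 22 were above and 1 below, with a median of 0.39. Of the 56 genes for snoRNAs, which guide the modification of ribosomal RNA and are made by RNA polymerase II, 26 were above and 6 below, with a median of 0.25. Of the 6 genes annotated as snRNA genes, among them snR48, which is named only a small non-coding RNA, 2 were above and 0 below. All 3 arrays were above 0 at 81 tRNA loci, 23 5S loci and 32 snoRNA loci. The same held for 30.7% of coding loci. The small RNA fit pooled the spread of all its loci, so its adjusted p-values do not reflect the spread of a single locus, and 57 of the 212 loci shared a probe with another. Mean G+C content was 31.9% around the small RNA genes and 37.04% at coding loci. After a correction for G+C content 104 small RNA loci were above, and with the probes over the genes themselves left out it was 102 of 196.

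**Figure D3:**
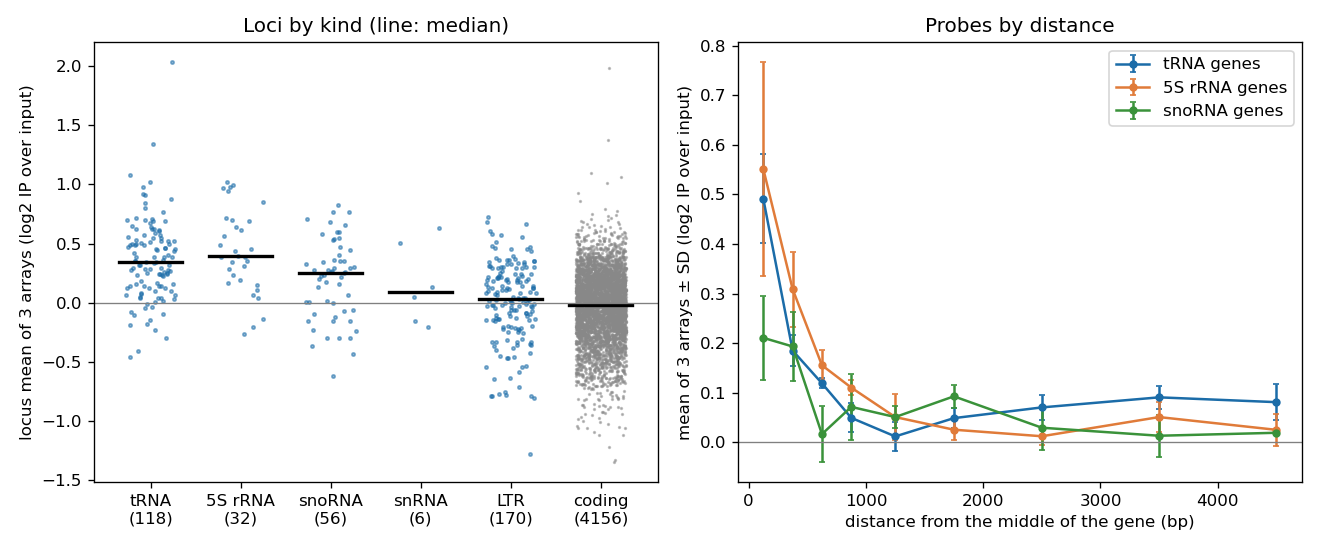
Left, the mean log2 IP over input of the 3 arrays at each locus (points) by kind of locus, with the median as a line and the number of loci in brackets. Right, the mean of all probes by distance in bp from the middle of the nearest gene of each kind, with the SD over the 3 arrays as bars; the tRNA curve drops from 0.49 within 250 bp to 0.05 at 750 to 1000 bp.

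The signal at these genes was narrow. Within 250 bp of the middle of a tRNA gene, 208 probes averaged 0.59, 0.42 and 0.46 in replicates 1, 2 and 3, and at 250 to 500 bp the mean was 0.22, 0.18 and 0.16. At 1000 to 1500 bp it was -0.006, -0.004 and 0.05. Around 5S genes the mean was 0.77, 0.54 and 0.34 within 250 bp and -0.002, 0.07 and 0.09 at 1000 to 1500 bp. Both kinds of gene were thus at the level of their surroundings about 1 kb away. Around snoRNA genes the mean was 0.30, 0.19 and 0.14 within 250 bp. Within 250 bp of the middle, on either side, the IP was above its array median at each kind, by 0.42 at tRNA genes and 0.69 at 5S genes. The input there was -0.05 and 0.16.

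The 4 highest tRNA loci and the 2 lowest are given from 5′ to 3′ as annotated in the reference assembly ASM294v3 (RefSeq), because they bound the range of this group, with the highest 5S gene. Capitals mark a match to GGTTCGA, the start of the usual internal B box to which the transcription factor TFIIIC binds; it was searched on the gene's strand.
SPCTRNAGLU.10: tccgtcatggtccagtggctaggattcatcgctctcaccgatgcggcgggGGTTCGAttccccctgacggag
SPCTRNAGLN.06: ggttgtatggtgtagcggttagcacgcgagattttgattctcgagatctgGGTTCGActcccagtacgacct
SPATRNAPRO.03: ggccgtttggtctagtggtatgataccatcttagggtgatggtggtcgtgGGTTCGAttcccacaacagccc
SPBTRNAARG.07: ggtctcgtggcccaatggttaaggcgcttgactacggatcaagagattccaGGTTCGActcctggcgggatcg
SPATRNALYS.04: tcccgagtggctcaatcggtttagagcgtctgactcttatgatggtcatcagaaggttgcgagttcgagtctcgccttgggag
SPBTRNAGLN.01: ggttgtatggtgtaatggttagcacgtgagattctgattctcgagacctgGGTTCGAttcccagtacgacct
SPRRNA.06: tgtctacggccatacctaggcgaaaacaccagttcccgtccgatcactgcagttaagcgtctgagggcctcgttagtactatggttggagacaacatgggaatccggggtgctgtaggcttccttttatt
The motif was found in 85 of 154 tRNA genes (55.2%), against 671 of 125717 windows of 100 bp of the 3 chromosomes searched on both strands (0.534%). Measured tRNA genes with it had a median ratio of 0.35 and those without it 0.32, with 44 of 69 and 28 of 49 above the median. The lowest tRNA locus, SPBTRNAGLN.01, holds the match, as the 4 highest do, and SPATRNALYS.04 does not.

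SPCTRNAGLU.10 (tRNA-Glu, minus strand, 1097499 to 1097570 of chromosome III) lies in the high region of centromere III and had 1.82, 2.14 and 2.14 in replicates 1, 2 and 3. SPCTRNAGLN.06 (tRNA-Gln, minus strand, 2074991 to 2075062 of chromosome III) had 1.16, 1.41 and 1.45 and lies in the high region that runs to xan1. SPATRNAPRO.03 (tRNA-Pro, minus strand, 1449398 to 1449469 of chromosome I) had 1.35, 0.95 and 0.94. These 3 loci were high on every array, and the first 2 of them lie inside regions that are high for a stretch wider than a tRNA gene, with which they share probes. SPBTRNAARG.07 (tRNA-Arg, minus strand, 1647283 to 1647355 of chromosome II), about 25 kb from the middle of centromere II, had 1.20, 0.75 and 1.11. SPBTRNAGLN.01 (tRNA-Gln, plus strand, 257454 to 257525 of chromosome II) had -0.34, -0.60 and -0.43. SPATRNALYS.04 (tRNA-Lys, minus strand, 2684683 to 2684765 of chromosome I) had -0.25, -0.22 and -0.75 and lies inside the low stretch of chromosome I around sea2 and hxk2. Both low loci were called below in the limma fit but not without replicate 2 (adjusted p = 0.0576 and 0.0542), nor was the second without replicate 3 (adjusted p = 0.15).

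The tRNA loci near centromeres were above the median more often than the others, a difference that was not tested. Of the 15 tRNA loci within 100 kb of a centromere, 13 were above the median and 0 below, with a median ratio of 0.49. Of the 103 others, 59 were above and 3 below, with a median of 0.32. By the amino acid carried, all 9 tRNA-Arg loci, all 8 tRNA-Asn loci and all 6 tRNA-Met loci were above the median, against 1 of 7 tRNA-Thr loci. The median ratio was 0.49 for tRNA-Arg, 0.54 for tRNA-Asn and 0.54 for tRNA-Met, and 0.07 for tRNA-Thr. These 4 groups were picked after their values were seen. Copies of one tRNA share sequence, so the loci of an amino acid are not independent.

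The 5S genes ranged from 1.02 to -0.26. SPRRNA.06 (plus strand, 1702123 to 1702252 of chromosome III) had 1.39, 0.88 and 0.81, SPRRNA.40 (minus strand, 2442700 to 2442852 of chromosome II) had 0.97, 0.94 and 1.09, and SPRRNA.07 had 1.03, 1.05 and 0.85. SPRRNA.39 had 1.03, 0.94 and 0.96. The 4 highest were thus within a narrow band on all arrays except for replicate 1 of SPRRNA.06. At the other end SPRRNA.03 had -0.24, -0.19 and -0.36 and SPRRNA.54 had 0.01, -0.09 and -0.53. Of the 32 genes, 19 contained the same 119-base sequence, so a probe over one of them can pair with DNA of the others. That SPRRNA.03 was called below rests on an adjusted p of 0.0489 in the limma fit, and the call was lost in the alternatives without any one replicate (0.0806 to 0.188), under normexp (0.0616) and with centring on the mode (0.0592).

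Among snoRNA genes the highest were snR51b, with 0.87, 0.94 and 0.68, snR70, with 0.67, 0.98 and 0.65, and snR36, with 0.59, 0.81 and 0.71. The locus of the transcript SPNCRNA.723 has the probes of snR70, so these 2 loci are one measurement. The stretch measured for snR51b overlaps theirs, so it is not independent of them. The lowest were snR46, with -0.53, -0.41 and -0.35, and its primary transcript SPNCRNA.7474, with -0.67, -0.54 and -0.66, whose measured stretches overlap too. Among the genes annotated as snRNA genes, snu2 (the U2 RNA of the spliceosome) had 0.80, 0.31 and 0.80 and snu4 (U4) had 0.43, 0.95 and 0.14, and both were called above. The U4 call was lost without replicate 2 (adjusted p = 0.159 in the limma fit). The snu6 gene, which encodes U6 and is transcribed by RNA polymerase III, had -0.01, -0.11 and -0.49 and was not called, nor were snu1, snu5 and snR48. Adjusted p-values for snu6 were 0.0482 with a dye term, 0.0166 with all 6 arrays and a dye term, 0.0256 with the replicate block and 0.00834 after the G+C correction, below the median in each. The long terminal repeats of retrotransposons, another group of short non-coding elements and one added after the data had been seen, had a median of 0.03, with 27 of 170 (15.9%) above and 25 (14.7%) below.

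Gaps between genes were higher than gene bodies, and most where genes converge. Probes in gaps between convergent genes averaged 0.18, 0.18 and 0.06 in replicates 1, 2 and 3, those in gaps between tandem genes 0.11, 0.09 and 0.02, those in gaps between divergent genes 0.02, -0.01 and -0.04, and those in gene bodies -0.01, -0.04 and -0.07. The excess over gene bodies was 0.18 ± 0.05 for convergent, 0.11 ± 0.03 for tandem and 0.03 ± 0.01 for divergent gaps (SD, n = 3), with all 3 arrays above 0 in each. The gaps are richer in A+T, with 30.2%, 32.3% and 32.3% G+C in convergent, tandem and divergent gaps, and 37.2% in gene bodies. After the correction for G+C content the mean excess was 0.07 for convergent, 0.03 for tandem and -0.05 for divergent gaps, so that of divergent gaps changed sign and the others shrank. Without the probes near small RNA genes it was 0.12 for convergent and 0.01 for divergent gaps. The ratio declined with G+C content over all probes: it averaged 0.17, 0.21 and 0.17 in the 258 probes set in sequence of at most 25% G+C, and -0.09, -0.12 and -0.05 where G+C exceeded 42%.

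**Figure D4:**
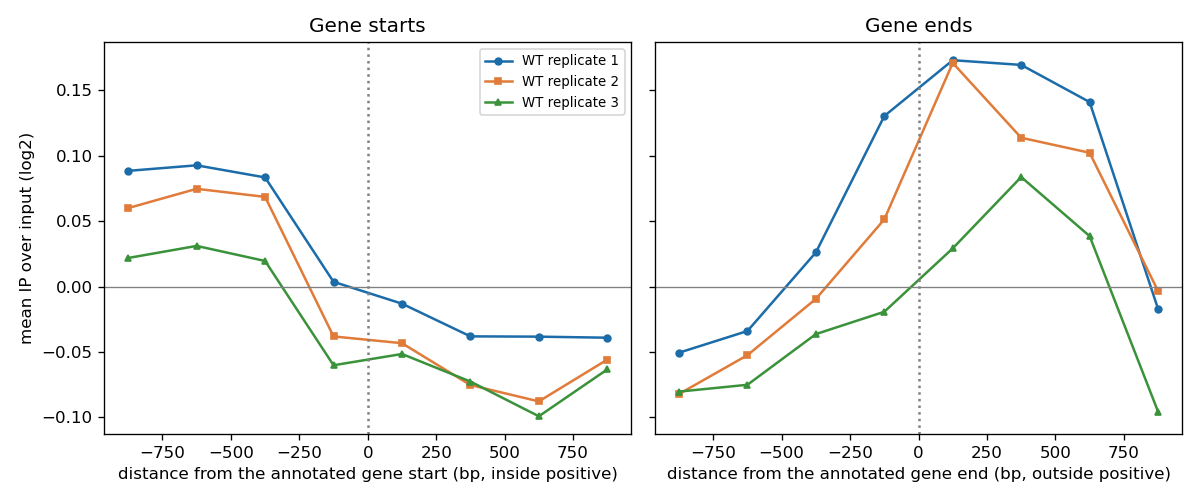
Mean log2 IP over input of each WT array (vertical axis) against the distance in bp from the annotated start (left; inside the gene is positive) and end (right; outside the gene is positive) of protein-coding genes, in bins of 250 bp. Replicates 1 and 2 are highest in the first bin beyond gene ends, both at 0.17, and replicate 3 in the next bin outwards, at 0.084.

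The same asymmetry appeared along the genes. In the last 250 bp of genes the mean was 0.13, 0.05 and -0.02, and in the 250 bp beyond the annotated end 0.17, 0.17 and 0.03. In the first 250 bp it was -0.01, -0.04 and -0.05, and in the 250 bp ahead of the start 0.004, -0.04 and -0.06. Gene ends were thus higher than gene starts on each array, with the smallest contrast in replicate 3. The last 250 bp exceeded the middle of genes by 0.11 ± 0.05, and by 0.03 after the G+C correction. The first 250 bp differed from it by 0.02, and by -0.02 after that correction. The G+C content was 32.7% in the last 250 bp and 35.6% in the first. Divergent gaps of all widths were near the nuclear median, with means of -0.004, -0.10 and -0.06 in gaps up to 500 bp, 0.05, 0.02 and -0.0004 at 1000 to 2000 bp and -0.03, -0.03 and -0.08 above 2000 bp.

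High regions also lay over gene bodies. The locus with the highest ratio among coding genes was SPCPB1C11.03 (2076867 to 2079003 of chromosome III, plus strand), with 1.28, 2.26 and 2.40 in replicates 1, 2 and 3, a mean of 1.98 ± 0.61 (limma, adjusted p = 8.5e-10). Its neighbour xan1 (2079421 to 2080662, minus strand), which encodes the dioxygenase that breaks down xanthine, had 0.55, 1.41 and 1.23 (adjusted p = 9.1e-07). Both lie in a region of 6695 bp with 26 probes. Next came exg1 (3514604 to 3516567 of chromosome II), for a β-glucanase of the cell wall, with 0.72, 1.91 and 1.502, and eng1 (998632 to 1002361 of chromosome I), for the endoglucanase that splits the septum between daughter cells, with 0.52, 1.60 and 1.16. SPBPB7E8.01 (3494222 to 3496777 of chromosome II) had 0.53, 1.41 and 1.09, and thi9 (1482419 to 1484752 of chromosome I), for a thiamine transporter, had 0.33, 1.35 and 1.099. All of these were above 0 on every array and lowest in replicate 1. The glycolytic gene tdh1, for glyceraldehyde-3-phosphate dehydrogenase, had 0.67, 1.12 and 0.78, and rpp201, for an acidic protein of the large ribosomal subunit, had 0.30, 1.20 and 0.87. The coding fit took its spread largely from all coding loci (22.7 prior against 2 residual degrees of freedom). Its adjusted p-values therefore do not measure the SD of a single locus.

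In 7 of these 8 gene bodies the input was above its array median too, rpp201 being the exception. Over SPCPB1C11.03 the IP was 3.20 above its array median and the input 1.24 above. Over exg1 the values were 2.18 and 0.83, over eng1 1.28 and 0.21, and over thi9 1.53 and 0.62. In the cores of centromeres II and III, by contrast, the input was below its median. The same held in 74 of the 93 high regions that lay in gene bodies only. Over those 93 regions the input averaged -0.42 and the IP 0.21. The other genes among the 12 highest were tfb5, for a subunit of the repair and transcription factor TFIIH, with 0.70, 0.86 and 0.77, atp14, for a subunit of the mitochondrial ATP synthase, with 0.87, 0.74 and 0.65, sir2, for a histone deacetylase of silent chromatin, with 0.66, 0.74 and 0.82, and pmc4, next to exg1, with 0.48, 1.04 and 0.67. The arrays were closer to each other at tfb5, atp14 and sir2 than at exg1 or eng1. At tfb5 and sir2 the IP was 0.26 and 0.52 above its median, and the input -0.49 and -0.20.

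**Figure D5:**
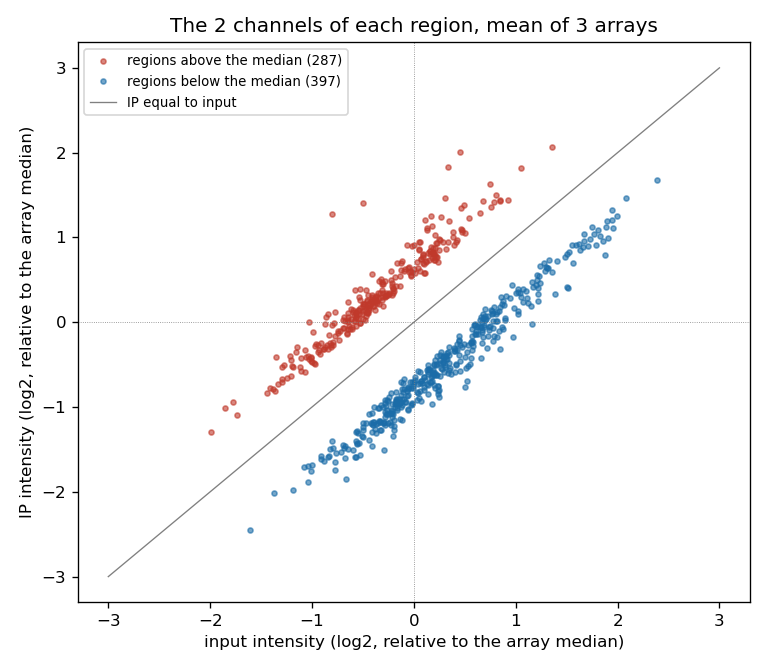
Mean IP intensity (vertical axis) against mean input intensity (horizontal axis) of the 287 regions above and the 397 regions below the median, both in log2 relative to the array median and averaged over the 3 WT arrays. Regions above spread along the diagonal, with a mean IP of 0.33 and a mean input of -0.36.

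Over all 287 high regions the IP averaged 0.33 above its array median and the input 0.36 below, the IP being above its median in 211 regions and the input below its median in 205. Over the 397 low regions the IP averaged -0.48 and the input 0.31. A low input thus accompanied many high ratios. A low input raises the ratio by itself, and the regions were picked by that ratio. Why the input was low there was not tested. Among the high regions, 93 lay in gene bodies only, 20 in gaps only, 92 in both, 28 within 500 bp of a small RNA gene, 6 within 30 kb of a centromere and 48 on the part of chromosome I without matching annotation. The centromere group had the highest ratios, with means of 1.16, 1.05 and 1.21 per region, followed by the small RNA group with 0.81, 0.81 and 0.82. The gene-body group had 0.61, 0.70 and 0.65. Among the low regions 185 lay in gene bodies only, and 4 within 500 bp of a small RNA gene. Replicate 1 was the least deep of the 3 arrays in 252 of the 397 low regions.

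The other high regions of the named set held 3 to 17 probes. A region of 17 probes at 5236338 to 5241319 of chromosome I, in the files' own coordinates and without annotation here, averaged 1.03, 1.95 and 1.77, with the IP 2.01 above its median and the input 0.45 above. A region between pfd6 and rpt5, for a prefoldin subunit and a proteasome ATPase, contained a tRNA-Arg gene and averaged 1.29, 0.70 and 1.02. A region over ucp3 at the 5S gene SPRRNA.40 averaged 0.97, 0.94 and 1.09. The region from met26 to thi9 averaged 0.63, 1.32 and 1.04, and that over zrt1 and sir2 averaged 0.74, 1.16 and 1.06. Met26 is the methionine synthase and Zrt1 a zinc transporter. The remaining 2 of the 12, on the same unannotated arm, had 3 probes each and averaged 0.98, 1.35 and 1.04 and 0.996, 0.978 and 1.17.

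The 12 lowest coding loci were in 1 interior stretch of chromosome I and near the left ends of chromosomes I and II. The lowest was stg1 (2661697 to 2662535 of chromosome I, 2 probes) with -0.79, -1.61 and -1.65 (limma, adjusted p = 9.4e-08). Around it lay mug114 with -0.74, -1.29 and -1.64, sea2 with -0.65, -1.002 and -1.52, hxk2 with -0.68, -1.03 and -1.44 and SPAC644.09 with -0.68, -0.83 and -1.68. At the left end of chromosome I lay SPAC212.08C, SPAC212.04C, tlh1 and, at 77480 to 77931, SPAPJ695.01C with -0.97, -1.04 and -1.16. Near the left end of chromosome II lay ght7 with -0.95, -0.89 and -1.51, fah1 with -0.78, -0.97 and -1.37 and grt1 with -0.74, -0.91 and -1.43. As grt1 overlaps fah1 on the other strand, these 2 loci share probes. All 12 were below 0 on every array. Their channels differed. Relative to the array medians, the IP and input were 0.67 and 1.79 at SPAC212.04C, -0.04 and 1.31 at SPAC212.08C and -0.17 and 0.98 at tlh1. At stg1 they were -1.94 and -0.57, at sea2 -1.34 and -0.26 and at ght7 -1.95 and -0.81. A low ratio thus went with a high input at some of these loci and with a low IP at others.

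Cytosolic ribosomal protein genes, which are heavily transcribed in growing cells, were above the median in 27 of the 92 measured of 121 (29.35%) and below it in 10 (10.87%), with a median of 0.12, against 15.2%, 21.8% and -0.02 for all coding loci. The RNase subunit genes rpp1, rpp21 and rpp40, whose symbols resemble those of the ribosomal P proteins, were left out of this list after its values were known. The mean G+C content of the list was 42.26%. The highest were rpp201, rpl35A01 with 0.73, 0.65 and 0.52, and rps1801 with 0.62, 0.36 and 0.76. The lowest were rpl3402 with -0.53, -0.87 and -0.60, rpp101 with -0.17, -0.55 and -1.20, and rps2601 with 0.05, -0.55 and -1.30. The last of these was called below although its 3 arrays did not share a sign. Paralogous pairs of these genes are close in sequence, so that probes may pair with both copies. The group thus held both high and low members.

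Of 13 measured genes of glycolysis and fermentation, 4 were above and 2 below, with a median of 0.14, where 15.2% of all coding loci were above and 21.8% below. The highest were tdh1, gpd3, its paralogue, with 0.12, 0.62 and 0.49, and pgk1, for phosphoglycerate kinase, with 0.50, 0.26 and 0.25. The lowest were hxk2, the enolase gene eno102 with -0.56, -0.74 and -0.70, and pfk1, for phosphofructokinase, with 0.01, -0.15 and -0.35, which was not called. Of these, hxk2 lies in the low interior stretch of chromosome I and eno102 near the low left end of chromosome II, at 58136. Of 8 hexose transporters, 1 was above (ght2 with 0.14, 0.93 and 0.59) and 3 below: ght7, ght3 with -0.83, -0.77 and -1.17, and ght6 with -0.45, -0.78 and -0.46, beside the same 15.2% and 21.8% of all coding loci. The genes ght7 and ght3 lie near the low left ends of chromosomes II and I, at 38514 and 82936, and ght6 at 204733 of chromosome III. Of 7 thiamine genes 2 were above, thi9 and thi2 with 0.58, 0.74 and 0.60, and 0 below. Among the 5 others, thi4 had -0.30, -0.06 and -0.38 and thi5 had 0.09, -0.04 and -0.59. Of 2 measured elongation factor genes, tef5 was above with 0.25, 0.43 and 0.63, and tef3 was not called, with -0.06, -0.03 and -0.14.

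The target genes of MBF, the factor that turns on transcription at the start of S phase, had 1 of 10 measured members above and 4 below, with a median of -0.10, against 15.2% above and 21.8% below among all coding loci, which were also more often below than above. They were cdc18, the origin-licensing factor, above with 0.35, 0.41 and 0.22, and nrm1, for an MBF co-repressor, below with -0.37, -0.63 and -0.81, ssb1 below with -0.51, -0.31 and -0.65, cdt2, for an adaptor of a ubiquitin ligase that acts in S phase, below with -0.20, -0.57 and -0.55, and mik1, for an inhibitory kinase of Cdc2, below with -0.17, -0.14 and -0.47. Each called member of this list had one sign on all 3 arrays.

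Of 26 measured replisome and origin factors, 6 were above and 4 below (all coding loci, 15.2% and 21.8%), with a median of -0.02, close to that of all coding loci. The highest were pcn1, for the sliding clamp PCNA, with 0.23, 0.52 and 0.38, psf1, for a GINS subunit, with 0.26, 0.32 and 0.40, and cdc18. The lowest were mcm6 with -0.48, -0.36 and -0.80 and mcm4 with -0.30, -0.51 and -0.10, for subunits of the replicative helicase, and orc5, for a subunit of the origin recognition complex, with -0.19, -0.42 and -0.20. Of 3 measured genes for RPA and ribonucleotide reductase, ssb1, for the large RPA subunit that was precipitated, was below and 0 were above. Its neighbours in the list, ssb2 with 0.14, 0.01 and 0.24 and suc22, for the small subunit of the reductase, with -0.07, 0.31 and 0.01, were not called. Of 6 checkpoint genes, rad9, for a subunit of the checkpoint clamp, was above with 0.35, 0.40 and 0.36, and chk1, for an effector kinase, below with -0.31, -0.40 and -0.22. The rad3 gene, with -0.13, -0.29 and -0.23, and crb2, for a mediator protein, with 0.20, -0.04 and 0.20, were not called.

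Of 12 heat shock and stress genes, 1 was above and 2 below, against 15.2% and 21.8% of all coding loci, with a median of 0.003. The chaperone gene hsp104 was above with 0.24, 0.34 and 0.38, ntp1, for the enzyme that breaks down trehalose, was below with -0.33, -0.52 and -0.51, and mas5, for a DnaJ-type chaperone, was below with -0.19, -0.26 and -0.83. The small heat shock gene hsp16 had -0.22, -0.32 and -0.15 and was not called. Of 4 measured core histone genes out of 9, 0 were above and 1 below, hht2 (histone H3) with -0.03, -0.26 and -0.49. Its partner hhf2 (histone H4) had 0.39, 0.49 and -0.47, a sign that was not the same on all arrays. The genes hta1 with 0.20, -0.003 and 0.07 and htb1 with 0.16, -0.04 and -0.09 were not called.

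Chromosome medians were close together. They were -0.01, -0.02 and -0.04 on chromosome I, 0.0001, 0.01 and -0.03 on chromosome II and 0.01, 0.03 and 0.12 on chromosome III. The arms of chromosome III exceeded those of the other two by 0.01, 0.02 and 0.17, a difference of 0.06 ± 0.09 (SD, n = 3) that was no larger than the spread between arrays and came mainly from replicate 3.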

How the data were processed

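Members and gene lists were chosen with earlier results of these data known. The authors deposited scanner intensity files made with Agilent Feature Extraction (10.7.3.1 in the submitters' processing notes, 10.7.1.1 in the header of replicate 1). Background subtraction and a dye factor, but no lowess step, preceded the processed intensity, per the file headers. The ratio in the authors' deposited matrix is linear and equals that of the processed intensities.

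Control spots and 2 to 102 outlier-flagged spots per array were left out. The log2 ratio of the deposited processed intensity in IP over input was centred on the nuclear median. An intercept-only model over the 3 WT arrays was fitted in limma 3.58.1 (R 4.3.3; 2 residual degrees of freedom, moderated), separately for probes, coding loci, small RNA loci and long terminal repeats, two-sided, with Benjamini-Hochberg adjustment at 0.05. Regions were at least 3 neighbouring called probes at most 1000 bp apart. Loci needed 2 probes. Other steps used Python 3.11.15, and the scripts were tested on simulated data.

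Positions are those of the files' build, Spombe:NCBI:Feb2002. They matched ASM294v3 within 12 bp in 300 of 306 checked windows on chromosomes II and III and up to 3728717 of chromosome I. Windows whose probes hardly varied in length were not checked. None was checked before 88039 of chromosome II or between 1042867 and 1140819 of chromosome III. The part taken as matching holds 85.6% of probes. Genes were named only there.

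Named were the 12 highest and 6 lowest regions, the 12 highest and 12 lowest called coding loci with all 3 arrays on one side, 4 high and 2 low small RNA loci of each kind, and, of each list, the 4 farthest from 0 or, above 12 measured members, the 3 highest and 3 lowest; 1 low region and 1 gene list are not reported here. Centromere windows, G+C correction and other alternatives are in the closing section; the long terminal repeats and 2 of the alternatives were chosen once the data were known. Same-numbered arrays of both strains share a slide and deviate together (correlations of 0.40, 0.36 and 0.48), so the numbers pair them.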

Additional observations from a re-analysis of the deposited data

How the results depend on the processing

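Counts were recomputed under each alternative. Centring on the mode, which lay 0.135 above the median on replicate 3 and within 0.01 of it on the others, gave 2794 probes, 146 regions and 307 coding loci above the median. With all 6 arrays and the replicate block there were 7823 probes, 693 regions and 1072 coding loci above and 8697 probes and 708 regions below. The error of that fit leaves out the spread shared by same-numbered arrays. An adjusted p of 0.01 gave 1686 probes, 72 regions and 343 coding loci above, and 2776 probes, 166 regions and 5 small RNA loci below. Runs of at least 5 probes gave 63 regions above and 130 below. Leaving out 1 replicate gave 2193 to 2862 probes, 81 to 142 regions, 297 to 525 coding loci and 81 to 119 small RNA loci above, and 2677 to 4161 probes, 142 to 294 regions, 578 to 890 coding loci and 2 to 8 small RNA loci below. These fits have 1 residual degree of freedom. The G+C correction turned the difference of divergent gaps to -0.0489 and of the first 250 bp of genes to -0.0177, and left 0.0342 for tandem gaps, 0.0678 for convergent gaps and 0.0261 for the last 250 bp. Windows of 20 kb gave 1.11 for the centromere flanks and -0.523 for the ends of chromosome II. Without probes near small RNA genes the differences were 0.0136 for divergent and 0.117 for convergent gaps. The uncalled snu5 locus turned to -0.0541 under the G+C correction. The cause of these shifts was not tested. Of the 48 named loci, 48 kept their call with dim probes left out, 48 with flags kept and 44 without replicate 2. Under normexp and a dye term no count moved by more than 1.5 times. The series matrix holds the same ratio as the processed intensities, so its unchanged counts are no separate check. The input was well above background at 99% of probes or more, and the IP at 95.3% to 99.4%. Precision is further limited by having 3 arrays.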
